A study of Mus musculus with 18 samples.

Results

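The regions described here are stretches of intronic chromatin that were open in every one of 18 mouse retina libraries profiled by ATAC-seq, an assay in which a transposase inserts sequencing adapters into accessible DNA. They were found by merging the peaks of all 18 deposited lists where they shared at least 1 bp. A merged region was kept when it was under 1200 bp, had a peak in all 18 lists, and had its median summit inside a gene, in no exon and more than 2.5 kb from any transcript start of GENCODE M21 (build mm10). This left 6133 regions, called members below, of 99792 merged regions, of which 24751 were called in all 18 libraries. Members were thus chosen by the peak calls, widths and positions measured in these same libraries, and those values are descriptions, not findings. Intergenic regions that met the same limits on width, calls and distance numbered 3950 and served as the nearest comparison. A further 24138 intronic regions were called in 2 to 17 libraries and are called variable intronic regions.

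All libraries came from whole retina of wild-type mice, aged 3 months (3mo) or 18 months (18mo), and each age had 3 groups of 3 libraries. The IOP group had intraocular pressure raised to 30 mmHg in the eye, lasting 1 hour, the contralateral group was taken from fellow eyes, and the untreated group was from animals without the procedure. The labels put collection of treated and contralateral retinas at day 2, whereas the study's text gives another day. A treatment text common to every label also mentions dasatinib injection, but no label assigns a library to a drug arm, and a preparation text common to every label mentions crosslinking, whereas by the methods nuclei of fresh tissue were transposed. The methods describe a library per eye, but no label ties a retina to an animal, so p-values measure the spread between these libraries. Bulk retina mixes all of its cell types, so fewer cells of a type and less open chromatin per cell cannot be told apart.

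Introns hold many of the enhancers of a vertebrate genome, which are short stretches of open chromatin where transcription factors bind and from which a promoter is activated, often over a long distance. In the retina, rods make up most of the cells, and the homeodomain factors Crx and Otx2 act on a large share of photoreceptor genes through the core sequence TAATCC. CTCF, a zinc-finger protein found in nearly all cell types, binds a long motif at the anchors of chromatin loops and at insulators, and is known for sites that stay occupied across tissues.

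The promoter calls fitted the label of the tissue. The start sites of the rod genes Nrl, Gnat1 and Pde6b carried a peak in all 18 libraries, as did 1 gene each of cones (Arr3), amacrine cells (Pax6) and Müller glia (Glul). Other markers of those types were called in fewer: Gnat2 and Opn1sw (cones) in 12 each, Gad1 and Tfap2a (amacrine) in 9 and 7, and Rlbp1 and Slc1a3 (Müller glia) in 8 and 7. The start site of the ganglion cell gene Thy1 was called in 17. Defining genes of the scarcer types were called in fewer libraries, with Grm6 (bipolar) and Pou4f2 (ganglion cells) in 2 each. Start sites of Rpe65, Best1, Tyr and Ttr (pigment epithelium), Cx3cr1, P2ry12, Csf1r and Aif1 (microglia), Pecam1, Cdh5 and Cldn5 (vessel), Hbb-bt and Alas2 (blood) and Ckm and Myh1 (muscle) were called in 0 of 18 libraries. Among the lens genes Cryaa, Crygs and Lim2, 1 library called the start of Lim2.

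The sequences at the summits of 10 members are shown first, because the motifs in them divide the members. Each is plus-strand sequence of GRCm38 (mm10, from RefSeq), centred on the median summit, and capitals mark matches on either strand to the motifs searched below, except that SOX, RFX, TEAD and the GC box are not marked. The first 5 are the highest-ranked members with a match to CTCF (Zfp286), Crx and Otx2 (TAATCC, Gm26561), the homeodomain core TAATTA (Cpox), the bHLH E-box CAGATG (Dcun1d3) and a loose MEF2 pattern (CTANNNNTA, Cdk8). The windows of Gm26561 and Cdk8 may resemble ribosomal genes, which was not tested, so their matches are not taken as examples of factor sites. The next 5 are the highest-ranked members within genes of rods (Rp1), photoreceptor transcription factors (Casz1), bipolar cells (Prkca), Müller glia (Nfib) and ganglion cells (Rbpms). Capitals in these 10 also include AGGTCA (nuclear receptors) and TGANTCA (AP-1), and the window of Nfib held none of the marked motifs.
Zfp286 (chr11:62756873-62757033): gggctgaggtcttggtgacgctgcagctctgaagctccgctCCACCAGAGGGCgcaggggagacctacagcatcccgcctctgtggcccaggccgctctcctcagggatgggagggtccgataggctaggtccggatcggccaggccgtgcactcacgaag
Gm26561 (chr17:70963674-70963834): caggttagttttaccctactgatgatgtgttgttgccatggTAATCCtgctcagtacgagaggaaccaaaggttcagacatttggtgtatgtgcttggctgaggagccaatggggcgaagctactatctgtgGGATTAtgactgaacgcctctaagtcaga
Cpox (chr16:58705039-58705199): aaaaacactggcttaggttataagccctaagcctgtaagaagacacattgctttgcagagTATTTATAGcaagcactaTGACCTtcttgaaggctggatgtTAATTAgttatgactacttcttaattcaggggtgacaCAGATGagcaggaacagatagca
Dcun1d3 (chr7:119861803-119861963): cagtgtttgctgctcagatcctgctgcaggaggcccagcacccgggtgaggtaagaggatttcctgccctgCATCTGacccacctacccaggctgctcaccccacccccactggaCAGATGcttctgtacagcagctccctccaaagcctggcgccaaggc
Cdk8 (chr5:146261032-146261192): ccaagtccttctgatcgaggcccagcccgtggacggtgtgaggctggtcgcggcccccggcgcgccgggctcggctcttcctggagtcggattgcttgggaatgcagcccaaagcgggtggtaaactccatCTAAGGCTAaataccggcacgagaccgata
Rp1 (chr1:4383757-4383917): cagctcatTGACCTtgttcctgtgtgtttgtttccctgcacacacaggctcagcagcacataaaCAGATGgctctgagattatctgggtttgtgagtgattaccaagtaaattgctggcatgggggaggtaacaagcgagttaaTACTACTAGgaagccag
Casz1 (chr4:148889141-148889301): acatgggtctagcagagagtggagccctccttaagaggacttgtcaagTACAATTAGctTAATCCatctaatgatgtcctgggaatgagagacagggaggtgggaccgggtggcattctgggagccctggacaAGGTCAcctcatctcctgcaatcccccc
Prkca (chr11:108160378-108160538): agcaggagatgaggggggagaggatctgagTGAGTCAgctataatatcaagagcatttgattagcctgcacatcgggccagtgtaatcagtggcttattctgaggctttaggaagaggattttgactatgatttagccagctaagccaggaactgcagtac
Nfib (chr4:82513188-82513348): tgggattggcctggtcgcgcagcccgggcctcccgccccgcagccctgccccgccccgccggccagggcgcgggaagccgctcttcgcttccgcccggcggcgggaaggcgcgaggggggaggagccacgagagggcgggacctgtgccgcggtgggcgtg
Rbpms (chr8:33833297-33833457): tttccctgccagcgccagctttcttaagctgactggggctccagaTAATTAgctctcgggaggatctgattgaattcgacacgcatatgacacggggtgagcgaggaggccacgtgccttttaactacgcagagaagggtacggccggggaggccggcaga

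A further 5 members are printed because the comparisons below turn on them; these were chosen after their values were seen. Ptprn2 was higher with age, and Dcps, Agrn and Nr4a1 were higher and Fancd2 was lower under raised pressure. Capitals follow the same scheme with CAGCTG (a bHLH E-box) and TTCNNNGAA (STAT) added. The window of Fancd2 held none of the marked motifs.
Ptprn2 (chr12:117035399-117035559): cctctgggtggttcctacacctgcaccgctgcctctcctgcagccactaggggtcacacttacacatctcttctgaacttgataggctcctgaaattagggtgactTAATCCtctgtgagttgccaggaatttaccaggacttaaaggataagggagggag
Dcps (chr9:35167400-35167560): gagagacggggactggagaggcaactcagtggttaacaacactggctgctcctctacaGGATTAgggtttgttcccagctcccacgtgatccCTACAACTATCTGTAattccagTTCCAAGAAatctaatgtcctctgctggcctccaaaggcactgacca
Agrn (chr4:156182469-156182629): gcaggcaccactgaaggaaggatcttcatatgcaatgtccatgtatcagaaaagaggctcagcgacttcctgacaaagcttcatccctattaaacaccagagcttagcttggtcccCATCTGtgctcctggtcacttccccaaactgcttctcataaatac
Nr4a1 (chr15:101258601-101258761): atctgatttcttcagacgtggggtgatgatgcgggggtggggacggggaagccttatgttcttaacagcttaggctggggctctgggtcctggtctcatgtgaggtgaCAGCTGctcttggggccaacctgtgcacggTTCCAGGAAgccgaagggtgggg
Fancd2 (chr6:113579400-113579560): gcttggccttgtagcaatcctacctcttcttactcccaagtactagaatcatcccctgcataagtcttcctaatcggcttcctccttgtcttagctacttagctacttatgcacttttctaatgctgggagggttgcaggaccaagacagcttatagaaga

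Members had a median width of 633 bp, from 211 to 1199 bp, and lay a median of 14.7 kb from the nearest transcript start. Of them, 664 (10.8%) lay more than 50 kb away, and the farthest was 324.6 kb away, within Edil3, which encodes an extracellular matrix protein. They were spread over 3699 host genes, of which 2475 held 1 member, 679 held 2 and 545 held 3 or more. Protein-coding genes held 92.8% of them. Among 16937 protein-coding genes with at least 500 bases of eligible intron, 18.8% hosted a member. First introns held 25.0% of the members placed in the main transcript of a protein-coding gene, against 23.3% of the eligible intronic bases and 27.2% of variable intronic regions. The density of members was 7.01 per Mb in first introns and 6.40 per Mb in the others.

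The genes with the most members were long. Gm20388, an annotated gene spanning 4435 kb, held 35 members, or 0.79 per 100 kb. Camta1, a calmodulin-binding transcription activator, held 18. Ntm, which encodes the adhesion molecule neurotrimin, held 13, and Prkce, a protein kinase C, held 12. The RNA-binding genes Celf4 and Msi2 and the xylosyltransferase gene Xylt1 held 11 each, and Arhgap26, Dlg2 and Phactr1 shared the eighth place with 10. Per length, the densest of the 40 genes with the most members was Ccdc85c, with 7 members in 71.8 kb (9.75 per 100 kb). The photoreceptor transcription factor gene Casz1 came next with 9 in 150.5 kb (5.98 per 100 kb), followed by Coro2b (5.95), Cnnm2 (5.9), Galnt7 (5.42), 1110051M20Rik (5.31) and the nuclear receptor gene Esrrb (4.98). Ccdc85c, Coro2b, Cnnm2, Galnt7 and 1110051M20Rik were named after their values were seen.

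At the limits of the rule, the widest members lay in Inpp4b, Mapre2 and Usp6nl at 1199 bp, and the narrowest regions left out lay in Gm30083, Camta1 and Mical3 at 1200 bp. The members nearest a transcript start lay in Ethe1 (2503 bp), Akap7 (2504 bp) and Gse1 (2504 bp), and the nearest regions left out lay in Dbp (2500 bp), Jarid2 (2485 bp) and Rp1 (2484 bp). Intronic regions called in 17 libraries numbered 1417, and the library that missed such a region most often was 18mo IOP replicate 3, with 352.

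The height of a peak was read in 2 ways. The fold is the ratio, as the authors' caller gave it, between a summit's pileup and its library's own local background, so a difference in fold is not a difference in reads. The percentile is the place of the peak among all peaks of its own list by −log10 of the q-value, with 100 the highest. The mean fold over 18 libraries had a median of 7.91 across members and ran from 2.01 in Prph2 to 45.1 in Chl1. The mean percentile had a median of 62.1, while 145 members (2.36%) exceeded 90 and 1355 (22.1%) lay under 50.

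The 12 highest members by mean percentile lay within Chl1, Filip1l, Cdk8, Cog6, Hmcn2, Gm26561, Gphn, Arhgap4, 4931414P19Rik, Prdm2, Zfp13 and Nfib. The member in Chl1, a neural cell adhesion gene, had a mean percentile of 100.0 and a fold of 45.1 ± 2.8 (SD, n = 18) between 41.0 and 50.3. Those in Gm26561 and in Gphn, which encodes the receptor scaffold gephyrin of inhibitory synapses, had folds of 32.5 ± 4.61 and 30.8 ± 3.42. The member in Cdk8, a kinase of the Mediator complex, had 24.7 ± 2.09 and that in Nfib, an NFI family transcription factor, 17.2 ± 1.84. In 4 of these 12 the 201 bp around the summit had a near-identical place elsewhere in the genome (at least 90% identity over at least 150 bases): Chl1 had 6 such places, Filip1l 3, Gphn 2 and Gm26561 1. Reads of such places cannot be told apart with certainty, and over all members 129 (2.10%) had one, against 4.73% of intergenic regions. The search left out simple repeats, and likeness of the highest windows, those of Gm26561 and Cdk8 included, to ribosomal genes was not tested. With members that have such places set aside, the highest 12 added Clcn5, Trim14, Itpkb and Sos1. Of the 12 highest, 7 had a CpG content over 0.6 of that expected from their bases, against 5.90% of all members. The member in AC115970.1 (chr10:96077498-96077920) was 97.6% identical to mitochondrial DNA over 373 bases, and it was the only member with such a match.

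Motif content differed between members and the sequence beside them. TAATCC stood in the 201-bp window of 1622 members (26.5%), against 8.36% of windows placed 1500 bp to either side. The CTCF motif stood in 746 (12.2%), against 0.179% of the flanking windows. Both were more common in members than in variable intronic regions, where 18.6% and 4.91% held them, and than in all 73449 merged regions searched that were called in at least 2 libraries (15.4% and 6.31%). Intergenic constant regions held TAATCC less often, at 19.9%, and CTCF more often, at 16.6%. Regions near a transcript start held TAATCC in 7.26% and CTCF in 3.42%, but the GC box GGGCGG in 52.9%, which 9.18% of members held.

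The GC box stood in 3.36% of flanks. Of the others, most were nearer their flanking level. The E-box CAGATG stood in 20.3% of members and 15.9% of flanks, CAGCTG in 17.5% and 9.69%, and AGGTCA in 18.4% and 12.9%. The Maf half-site TGCTGAC, an element of the rod factor Nrl's family, stood in 5.23% against 3.20%. The loose MEF2 pattern CTANNNNTA, which allows any base at its centre, stood in 21.03% against 21.10%. TAATTA stood in 4.60% against 5.51%, so over the whole window neither of these patterns exceeded its flanking level. A stricter MEF2 site was not tested. The remaining motifs stood in 6.15% against 5.72% (AP-1, TGANTCA), 4.14% against 5.45% (STAT, TTCNNNGAA), 10.7% against 9.58% (NFI half-site, TTGGCA), 2.10% against 2.83% (SOX, ACAATGG), 0.391% against 0.245% (RFX, GTTGCCATG) and 9.24% against 10.7% (TEAD, GGAATG). CTCF and TAATCC were largely in separate members: 48 held both, and 890 held none of the 15 motifs. TAATCC and CAGATG occurred together in 327. Matches can overlap, since short motifs share letters, and a match is a description of the sequence rather than a bound site. Median GC content was 51.2% in members and 46.8% in flanks, and most of the window was repeat-masked in 3.56% of members against 16.96% of flanks.

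Position within the region separated the motifs further. TAATCC matches reached 53.9 per 1000 members per 20-bp bin within 40 bp of the summit and 8.58 beyond 400 bp, a ratio of 6.29. For CTCF the ratio was 109, and its matches formed a pair of maxima on either side of the summit, the higher at 39.95 per 1000 in the bin centred 30 bp from it, with 17.1 and 18.8 per 1000 in the bins beside the summit. The ratio was 1.63 for CAGATG, 1.23 for the loose MEF2 pattern and 1.04 for TAATTA.

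**Figure D1:**
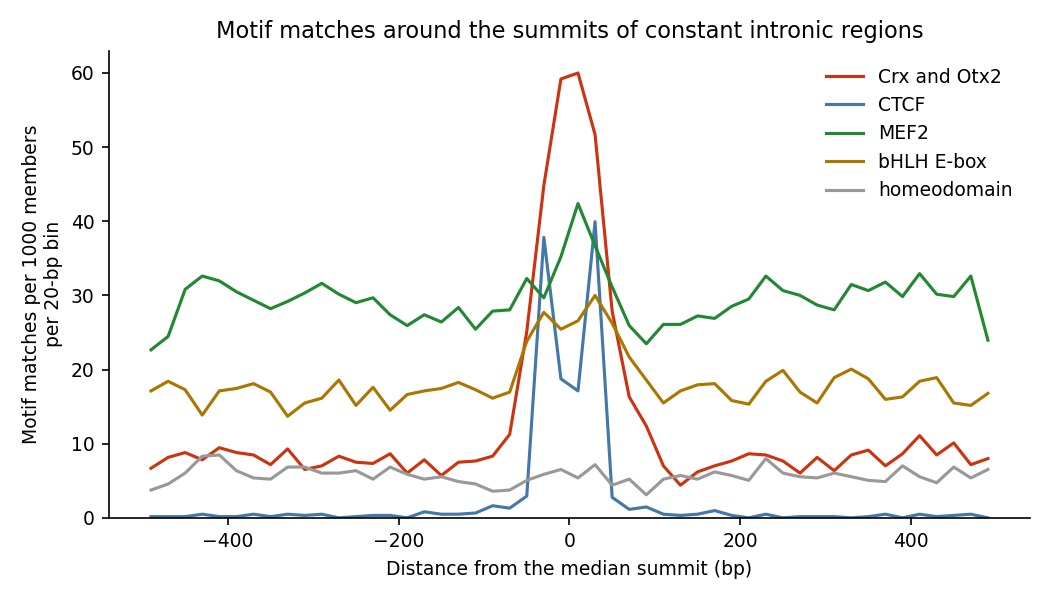
Motif matches per 1000 members in 20-bp bins (vertical axis) by distance in bp from the median summit (horizontal axis), with 1 line per motif, over 6133 members. TAATCC (Crx and Otx2) peaks at the summit at 60.0 per 1000, CTCF forms 2 maxima beside it, and the homeodomain line (TAATTA) stays level.

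The 2 leading motifs differed along the height order, with TAATCC more common among the higher members and CTCF scarce among the highest. When members were ranked by mean percentile and divided into deciles, TAATCC stood in 19.2% of the lowest decile, 39.97% of the ninth and 37.8% of the highest. CTCF stood in 12.7% of the lowest decile, 16.3% of the third, 5.38% of the ninth and 1.47% of the highest. Within every library taken alone, TAATCC was more common in the highest quartile and CTCF in the lowest, but the size differed. TAATCC stood in 32.1% to 42.0% of the highest quartile and 13.0% to 27.2% of the lowest. For CTCF the shares were 2.35% to 8.54% and 9.58% to 18.9%. Untreated libraries had TAATCC in 41.0% to 42.0% and 13.0% to 16.8%. In 3mo IOP replicate 3 the shares were close, at 32.1% and 27.2% for TAATCC and 8.08% and 9.58% for CTCF. Median width was 543 bp in the lowest decile and 857 bp in the highest, and the median SD of the summit position over libraries was 48.6 and 20.3 bp. These are descriptions over regions of the same libraries, and no test was made.

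**Figure D2:**
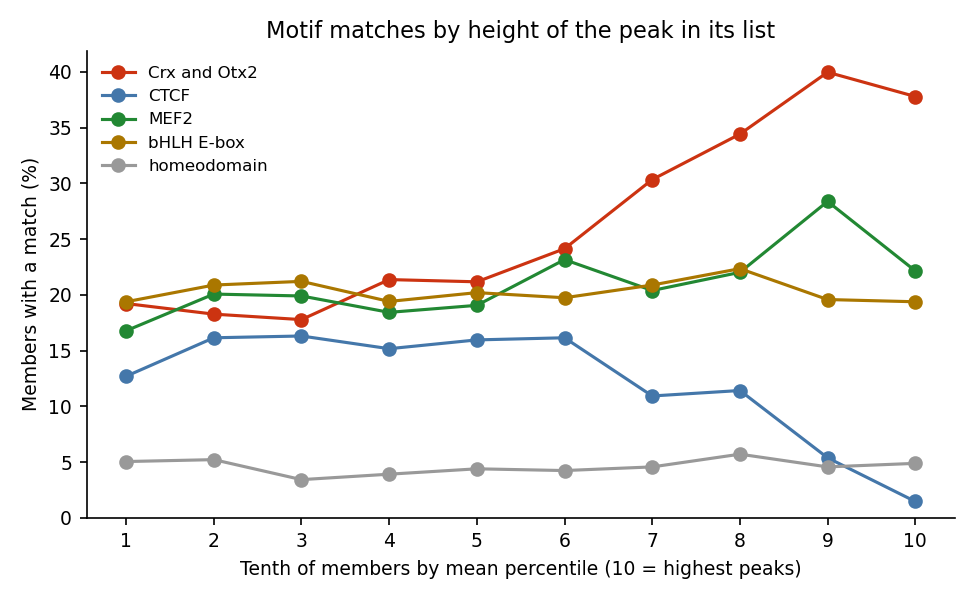
Percentage of members with a match to each of 5 motifs (vertical axis) in deciles of the members by mean percentile of −log10 q over 18 libraries (horizontal axis, 10 = highest; 613 or 614 members each). The TAATCC line goes from 19.2% to 37.8%, with its maximum in the ninth decile. The CTCF line goes from 12.7% to 1.47%, with its maximum in the third.

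The summit was placed steadily. In 65.0% of members every library listed exactly 1 peak, and the SD of the summit position over 18 libraries had a median of 31.6 bp, under 20 bp in 917 members (15.0%) and over 100 bp in 295 (4.81%). Members with TAATCC had a median SD of 27.4 bp and members with CTCF one of 35.6 bp. In the highest decile, the steadiest summits lay in Tjp3, a tight junction gene (SD 2.6 bp, range 11 bp over 18 libraries), Kcnk9, a potassium channel gene (3.0 bp), Gm26561 (4.4 bp) and Mtf1, the metal-response transcription factor gene (4.6 bp). The least steady lay in Dlg4, which encodes the synaptic scaffold PSD-95 (324.7 bp), Ppm1h (267.7 bp), Arid1b (148.0 bp) and Wdr45 (146.8 bp).

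Members lay in most of the eligible listed genes (those with enough intron) of rods, of photoreceptor transcription factors and of photoreceptor synapses, and in fewer of the other lists. They lay in 11 of 19 eligible genes of rod phototransduction (18 members), 9 of 13 photoreceptor transcription factor genes (36 members) and 11 of 14 genes of the ribbon synapse and photoreceptor terminal (33 members). The counts were 3 of 10 cone genes (3 members), 3 of 12 bipolar genes (10 members), 4 of 14 amacrine and horizontal genes (5 members), 2 of 10 ganglion cell genes (3 members) and 5 of 12 Müller glial genes (10 members). None of the 9 eligible microglial and vessel genes held a member. Over all eligible protein-coding genes the share was 18.8%. These lists were drawn up with earlier results of these data known, gene lengths differ between them, and no test was made.

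Within each list members are ordered by mean percentile, and the folds need not follow that order. Among rod genes, the highest member lay in Rp1, which encodes a microtubule-associated protein of the outer segment axoneme, with a fold of 16.4 ± 2.60 (SD, n = 18). Next by percentile came Gnb1, the β subunit of transducin (8.91 ± 1.81), and Pde6b, the rod phosphodiesterase β subunit (6.81 ± 1.11), although the folds in Cngb1 (11.5 ± 1.63) and Cnga1 (11.4 ± 2.27), the rod channel genes, were larger. Abca4, the retinoid flippase of outer segments, held 5 members with folds from 6.5 to 9.7. The lowest member of all by percentile lay in Prph2, which encodes the disc rim protein peripherin, at a percentile of 16.9 and a fold of 2.01 ± 0.18. Of the 18 rod members 5 held TAATCC. The cone list held Slc24a2 (8.16 ± 2.27), Guca1a, which also counts as a rod gene (2.77 ± 0.43), and Pde6c, the cone phosphodiesterase (5.70 ± 1.59), and none of these held TAATCC.

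Among the listed genes, the largest cluster lay in a photoreceptor transcription factor gene. Casz1 held 9 members, the highest by percentile at a fold of 6.34 ± 0.94 with TAATCC in the printed window, and Esrrb, which encodes a nuclear receptor of rods, held 8, led in percentile by a fold of 8.36 ± 1.64. Thrb, the thyroid hormone receptor gene needed for one class of cone opsin, held 6 members, Rorb 4, and Mef2d and Prdm1 3 each. Crx itself held 1 (4.39 ± 1.27), as did Nrl, the rod fate determinant (3.88 ± 0.47), and Mef2c (6.39 ± 1.13). TAATCC stood in 12 of the 36. In the ribbon synapse list TAATCC stood in 13 of 33, and the highest by percentile lay in Syt1 (13.7 ± 1.87), Elfn1 (7.11 ± 1.51) and Rims2 (12.9 ± 2.83), while the largest fold was in Pclo (14.7 ± 3.49), and Rims2, a scaffold of the presynaptic active zone, held 6. Prkca, the protein kinase C of rod bipolar cells, held 8 of the 10 bipolar members, and its highest had a fold of 13.3 ± 2.44. Gnao1 (7.89 ± 2.77) and Trpm1, the channel of ON bipolar cells (5.77 ± 0.92), held 1 each. The inner retina was represented by Slc6a9, the glycine transporter gene (5.66 ± 1.90 and 6.38 ± 0.96), Th, tyrosine hydroxylase (8.16 ± 1.76), Rbpms, a pan-ganglion cell marker (9.20 ± 2.02), and Ebf3 (6.80 ± 1.57 and 6.19 ± 1.51). Müller glial genes were led in percentile by Nfib (17.2 ± 1.84) and Nfix (7.01 ± 2.33 and 6.56 ± 1.45).

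For comparisons between groups, log2 of the fold was quantile-normalized over libraries and fitted with limma across all 24751 regions called in all 18 libraries, with Benjamini-Hochberg adjustment over all of them and calls at an adjusted p under 0.05. Every member has a fold in every library, so none was filtered out. Values given below as normalized folds are on that scale. The lists held 36010 to 66160 peaks, 9.84% to 17.5% of them in members, and the reads behind them are not in the lists, so depth is unknown. The untreated libraries stood apart: the median width of their peaks in members was 200 to 255 bp against 320 to 455 bp elsewhere, and their shortest listed peak was 79 to 89 bp against 114 to 157 bp.

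The age comparison set 6 control libraries at 18mo (3 contralateral, 3 untreated) against 6 at 3mo. Of the members, 29 (0.473%) were higher and 7 (0.114%) lower at 18mo, against 0.279% and 0.101% of all 24751 regions. The median difference over members was 0.04 on the log2 scale, and that over all regions was -0.01. The 36 called members changed by 0.30 to 1.00 log2 units with a median of 0.56, and in 15 of them the 6 libraries of each age did not overlap. Over all members 0.652% did not overlap, and over all regions 0.489%.

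The strongest age call lay in Spink13, a gene of the Kazal-type protease inhibitor family, on chromosome 18. Its normalized fold was 8.72 to 9.42 (median 9.0) in the 3mo controls and 13.2 to 15.7 (median 14.6) in the 18mo controls. The ages did not overlap, and the difference was 0.69 ± 0.06 (log2, SE; adjusted p = 8.378e-06, limma). The 18mo IOP libraries had 11.8, 12.3 and 13.2, above every 3mo control and below every 18mo contralateral library. Of the 3 members with the smallest p in each direction, only this one also passed when percentiles replaced folds.

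Other members were higher at 18mo. In Ptprn2, which encodes a membrane protein of dense-core vesicles, the normalized fold was 4.69 to 8.91 (median 5.46) in 3mo controls and 7.52 to 12.8 (median 10.3) in 18mo controls. The ages overlapped, because 3mo contralateral replicate 2 at 8.91 stood above the lowest 18mo library, and the difference was 0.83 ± 0.12 (adjusted p = 0.004668, limma). The 3mo IOP libraries had 11, 9.59 and 9.25, above the 3mo controls. In Ascc2, a subunit of a signal cointegrator complex, values of 9.62 to 12.6 (median 12.2) at 3mo and 14.1 to 17.7 (median 15.3) at 18mo did not overlap (0.43 ± 0.06, adjusted p = 0.004668, limma). The largest difference was in Diaph3, a formin gene, from 3.47 to 6.38 at 3mo to 7.82 to 11.6 at 18mo (1.00 ± 0.15, adjusted p = 0.005134, limma). Grm8, a presynaptic metabotropic glutamate receptor gene, rose by 0.73 and Numb, an inhibitor of Notch, by 0.62, and the highest Prkca member, the single list member called, by 0.36.

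The 7 members that were lower at 18mo lay in Phactr3, Cyb5rl, Dpp6, Adcy2, Slc1a1, Adgrl2 and Arhgef10. In Phactr3, which encodes an actin and phosphatase binding protein, the normalized fold was 5.02 to 7.31 (median 6.35) at 3mo and 3.66 to 4.83 (median 4.20) at 18mo. The ages did not overlap (-0.59 ± 0.11, adjusted p = 0.01449, limma). Cyb5rl showed 5.84 to 7.27 against 3.70 to 5.24, again with no overlap (-0.56 ± 0.10, adjusted p = 0.01839). Dpp6, an accessory subunit of Kv4 potassium channels, showed 6.38 to 12.3 against 4.66 to 9.20 (-0.46 ± 0.09, adjusted p = 0.01839, limma). In Dpp6 the 3mo untreated libraries lay below the 18mo contralateral ones, while within each kind of control the ages did not overlap. Slc1a1, a neuronal glutamate transporter gene, fell by 0.60, and Adgrl2, a latrophilin gene, fell by 0.68.

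The number of age calls depended on single libraries. Without 3mo contralateral replicate 2, the only library of its group in the short class, it was 151. It was 23 without 3mo contralateral replicate 3, 17 without 3mo untreated replicate 4, 19 without 3mo untreated replicate 5, 22 without 18mo contralateral replicate 1, 17 without 18mo contralateral replicate 3, 23 without 18mo untreated replicate 5 and 17 without 18mo untreated replicate 6. Within contralateral controls alone 2 members passed and within untreated controls alone 11. For a difference in the age effect between the kinds of control, 0 members were called (limma, with 565 at an unadjusted p under 0.05).

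Raised pressure at 18mo, 3 IOP against 3 contralateral libraries, gave 7 members higher (0.114%) and 6 lower (0.0978%), against 0.0323% and 0.0566% of all regions. Sizes ran from 0.66 to 1.3 log2 units. The groups of 3 did not overlap in any of the 13, nor in 18.4% of all members and 18.9% of all regions, so that separation says little by itself. At 3mo, 1 member was higher, against 0.00404% of all regions, and 0 were lower, against 0.0% (limma, with 129 and 171 members at an unadjusted p under 0.05). The comparisons at the 2 ages share no library. All 13 members called at 18mo had the same sign at 3mo, where 7 of them had an unadjusted p under 0.05 (limma). Over all members the same sign was shared by 55.8%, and 4.89% had an unadjusted p under 0.05 at 3mo. For a difference between the ages in the response to IOP, 0 members and 0.0% of all regions were called in either direction (limma). At an unadjusted p under 0.05 there were 379 members. With 3 libraries per group, a lack of calls does not show that the responses were equal.

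The member in Dcps, the scavenger decapping enzyme of mRNA decay, was called at both ages. Its normalized fold was 3.83, 4.10 and 4.23 in the 18mo contralateral libraries and 9.26, 7.97 and 9.65 in the 18mo IOP libraries. At 3mo it was 3.52, 4.30 and 4.64 against 9.84, 8.74 and 7.1. All IOP libraries lay above all contralateral ones, by 1.14 ± 0.14 (adjusted p = 0.002191) at 18mo and 1.04 ± 0.14 (adjusted p = 0.01235, limma) at 3mo. Untreated libraries lay between, at 5.43 to 6.87.

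The member in Agrn, which encodes the basement membrane proteoglycan agrin, had normalized folds of 4.16, 4.53 and 3.85 in 18mo contralateral libraries and 8.45, 12.04 and 10.6 in 18mo IOP libraries. The difference of 1.3 ± 0.17 (adjusted p = 0.002191, limma) was the largest of the 13. At 3mo the values were 4.54, 6.20 and 4.78 against 7.39, 7.90 and 9.03, with no overlap (0.66 ± 0.17, unadjusted p = 0.0008109). Untreated libraries had 3.83 to 5.99, within or near the contralateral range.

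Members in Nr4a1 and Eif2ak3 were higher as well. Nr4a1, an immediate early nuclear receptor gene, had 3.86, 3.69 and 3.67 in 18mo contralateral and 6.08, 5.65 and 6.13 in 18mo IOP libraries (0.67 ± 0.12, adjusted p = 0.02965, limma). At 3mo it had 3.55, 4.49 and 4.69 against 5.16, 5.35 and 5.81, and untreated libraries spanned 3.94 to 5.78. Eif2ak3, which encodes PERK, a kinase of the unfolded protein response, had 6.80, 6.34 and 6.25 against 13.4, 14.6 and 12.8 at 18mo (1.08 ± 0.18, adjusted p = 0.02965, limma) and 4.29, 7.72 and 7.38 against 9.42, 9.57 and 12.6 at 3mo. In both genes the IOP and contralateral libraries did not overlap at either age. The other higher members lay in Ndrg3 (0.79), Dpysl4 (0.83), a member of the collapsin response mediator family, and 1810043G02Rik (0.69). In Dpysl4 the 18mo untreated libraries had 6.71, 5.38 and 6.55 and overlapped the 18mo IOP libraries at 7.11, 6.40 and 6.44. In Ndrg3 and 1810043G02Rik the 18mo untreated libraries lay between the contralateral and IOP ones of that age.

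The 6 lower members lay in Nav3, Fancd2, Ccdc138, Sp4, Cnot1 and Ap1b1. Fancd2, a gene of DNA crosslink repair, had 15.2, 16.8 and 16.7 in 18mo contralateral and 10.3, 8.93 and 8.94 in 18mo IOP libraries (-0.79 ± 0.13, adjusted p = 0.01869, limma). At 3mo it had 14.2, 16.01 and 10.8 against 9.29, 9.25 and 10.2, again with no overlap. Untreated libraries had 8.85 to 12.6 (median 10.6), against 10.8 to 16.8 (median 15.6) in all contralateral libraries. Nav3, a neuron navigator gene, fell by 0.86, Sp4, a zinc-finger transcription factor gene, fell by 0.88, and Cnot1, the scaffold of the deadenylase complex, fell by 0.73. None of the 13 passed when percentiles replaced folds. With the replicate number fitted as a block, 0 members were called for IOP at either age. Without 18mo contralateral replicate 1 the number of calls was 3, without 18mo contralateral replicate 2 it was 2, without 18mo contralateral replicate 3 it was 2, and without 18mo IOP replicate 3 it was 3. The 3mo call in Dcps was lost without 3mo contralateral replicate 1 or 2 and without 3mo IOP replicate 1 or 2.

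**Figure D3:**
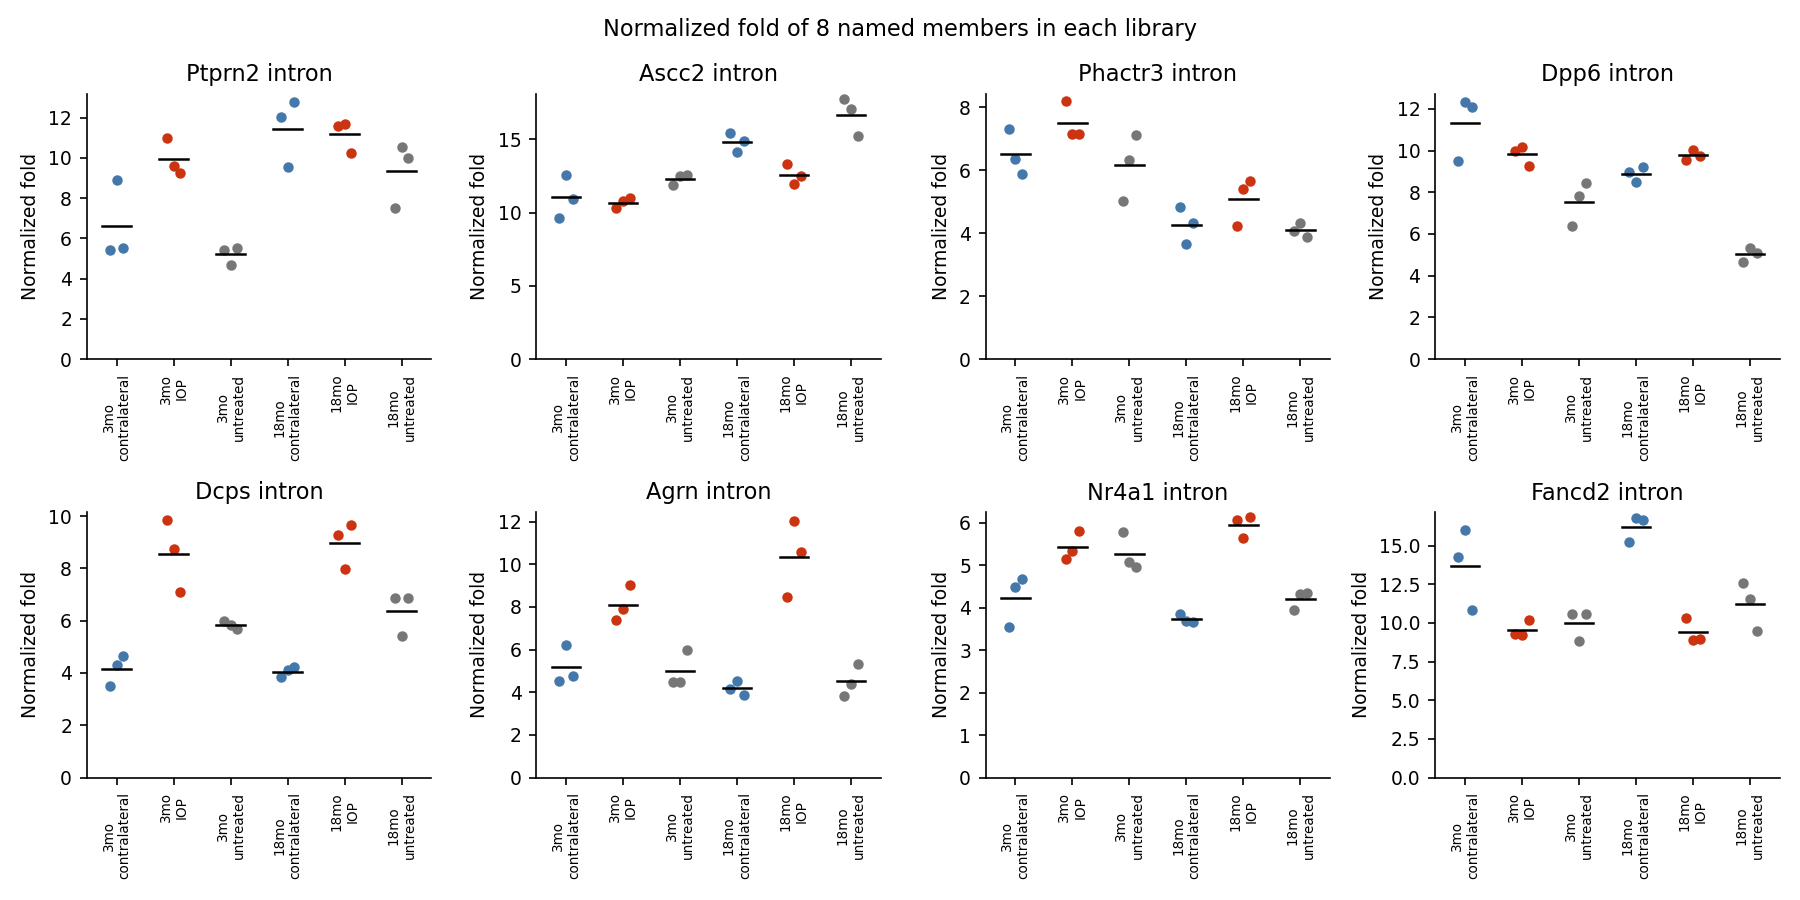
Normalized fold (vertical axis, from 0) of 8 named members in each of 18 libraries, by group (horizontal axis), with points for libraries and lines for group means of 3. In Dcps, Agrn and Nr4a1 the IOP libraries (red) lie above the contralateral ones (blue) of the same age, in Fancd2 below; untreated libraries are grey.

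More members were called between the 2 kinds of control, 6 libraries against 6, than in any other comparison, while few differences were large: 3 members exceeded 1 log2 unit, against 4 for IOP at 18mo. Between untreated and contralateral libraries 1675 members (27.3%) were higher and 686 (11.2%) lower in untreated, against 17.7% and 16.7% of all regions. The kind of control moved with the width of listed peaks given above, and with the animals, and these cannot be told apart. Among the 1622 members with TAATCC 702 were higher and 57 lower, with a median difference of 0.22 log2 units. Among the 746 with CTCF 46 were higher and 148 lower, with a median of -0.07, while the median over all members was 0.09.

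**Figure D4:**
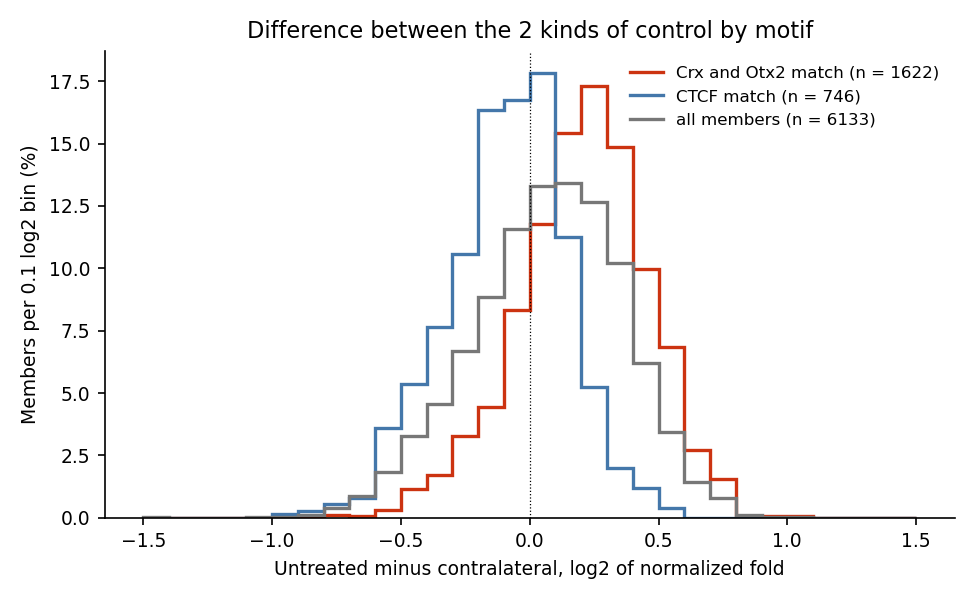
Distribution of the difference untreated minus contralateral in log2 of the normalized fold (horizontal axis), as a percentage of each set per bin of 0.1 (vertical axis), for members with TAATCC (n = 1622), with CTCF (n = 746) and for all 6133. The TAATCC distribution is centred to the right of 0 (median 0.22) and the CTCF distribution slightly to its left (median -0.07), and the sets overlap.

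The member in Lama1, the laminin α1 gene, showed the smallest p in this comparison and the largest SD over 18 libraries (0.74 log2 units). Its normalized fold was 5.95 to 10.5 (median 8.27) in untreated and 19.01 to 25.4 (median 21.9) in contralateral libraries, with no overlap (-1.42 ± 0.09, adjusted p = 1.281e-08, limma). Its 201-bp window held 23 copies of the telomere repeat CCCTAA, counted on either strand, and no other member held 10 or more. The search for near-identical places left out such simple repeats, so its reads may stem from other places and cannot be told apart. Other members lower in untreated libraries lay in Myof (fell by 0.77) and Dpp6 (fell by 0.70), and the strongest higher ones lay in Ccdc162 (0.79), Acoxl (0.92) and Nectin1, an adhesion gene (0.84). The most variable members after Lama1 were those in Cavin1 (SD 0.61), a caveolar coat gene, Fam124a (0.60) and Fbxo9 (0.57), and the steadiest were those in Chl1 (0.04), Wdr45 (0.04) and Fpr3 (0.05). Across members the SD had a median of 0.24, against 0.19 over all regions tested.

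As a single value per library, the median percentile of members among the 24751 regions was 32.8 ± 1.11 in 18mo controls and 31.3 ± 2.00 in 3mo controls (SD, n = 6 each). The difference of 1.56 percentile points did not pass an exact two-sided permutation test (p = 0.1342). The kinds of control spread the values: contralateral libraries had 31.6 to 32.2 at 18mo and 29.1 to 29.6 at 3mo, and untreated libraries 33.5 to 34.0 and 32.9 to 33.3. In neither kind did the ages overlap, with differences of 2.39 and 0.73, each with an exact permutation p = 0.1, the smallest that 3 against 3 can give. With age labels shuffled inside contralateral and untreated controls separately, a test added after seeing the data, p was 0.005, the smallest its 400 arrangements can give. IOP libraries were at 30.8 to 31.5 at 18mo, below the contralateral range (difference -0.64, exact permutation p = 0.1), and at 28.95 to 29.6 at 3mo (difference -0.22, exact permutation p = 0.4).

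Against intergenic constant regions, members did not stand higher or lower in the lists over all libraries. The median percentile differed by -0.23 ± 1.17 points (SD over 18 libraries, members minus intergenic; p = 0.4058, two-sided permutation test of sign flips). The sign followed the kind of library: it was positive in 6 of 6 untreated libraries (0.63 to 1.47) and negative in 11 of the 12 others (-1.67 to 0.22). The displacement of a library's summits was measured from the median summit of the other libraries. The 18 values are thus not the independent units that a sign-flip test assumes. Summits lay slightly nearer that median in members, by -0.50 ± 0.79 bp (p = 0.03028, permutation test of sign flips), a difference negative in 8 libraries, positive in 1 and 0 in 9. It lost its call (-0.47 to -0.41 bp) without 3mo contralateral replicate 3, 3mo untreated replicate 4 or 6, 18mo contralateral replicate 2, 18mo IOP replicate 2 or 3, or 18mo untreated replicate 5 or 6.

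**Figure D5:**
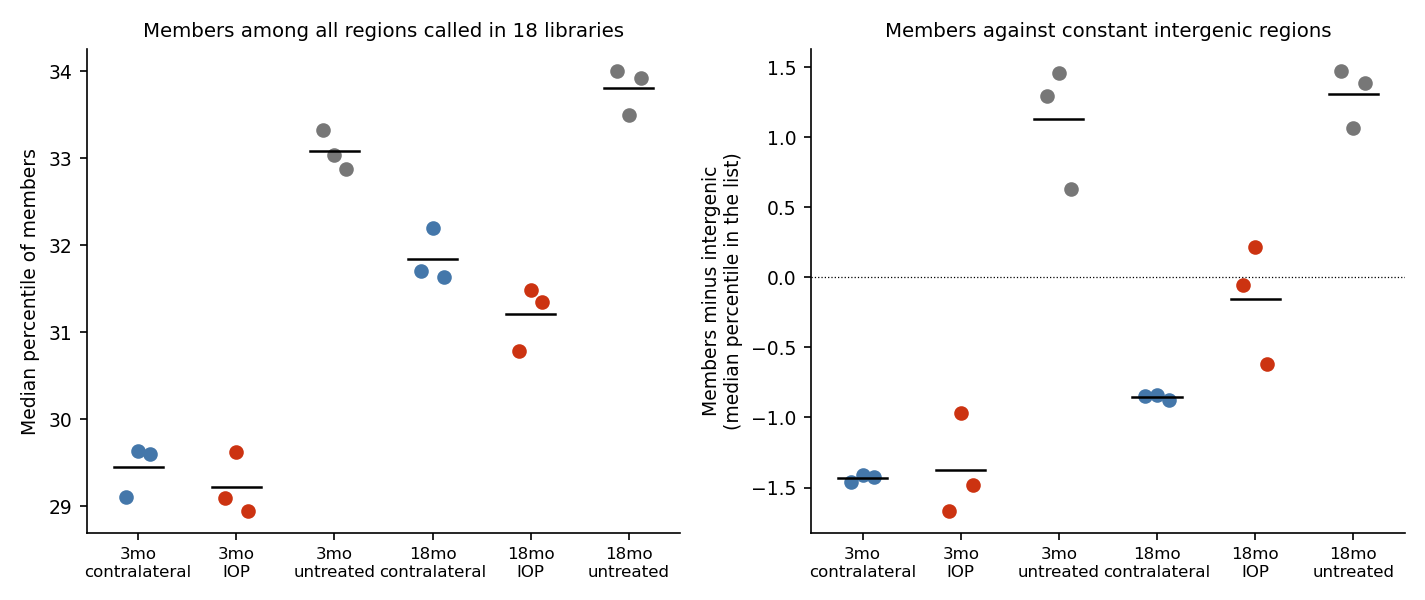
Left, median percentile of members among the 24751 regions called in all 18 libraries; right, median percentile of members minus that of intergenic constant regions within each list (vertical axes, percentile points), by group (horizontal axes), with points for libraries and lines for means of 3. On the left the 18mo points lie above the 3mo points within each kind of control, and on the right the 6 untreated libraries lie above 0.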

How the data were processed

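Peaks were called by the authors with MACS2, per library and not pooled, on mm10; the authors used edgeR on read counts and HOMER for motifs, and their processing notes also name STAR 2.7.8a and bedtools 2.29.2. Trimming, duplicate removal and any read shift were not given in the sources used here. The deposited fold is a ratio of pileup to local background, made by the authors. The deposited −log10 q-value was used for percentiles and to choose the highest peak of a region in a library. The deposited −log10 p-value and score were not used.

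Members, gene lists and tests were chosen with earlier results of these data known. Named members were the 12 highest by mean percentile, the 8 genes with most members, the 3 with the smallest p per direction and contrast, the 4 most and least variable, the leading 3 per list, and the steadiest and least steady summits; others named were chosen after their values were seen, and some that the rule names are not reported here. The study compared read counts, which peak lists do not hold, so log2 fold was fitted with limma 3.58.1 (R 4.3.3), tested on simulated data. Regions not called in every library were not tested. Sequence came from GRCm38, motifs were searched on both strands, and copies with BLAST 2.17.0 under its default filter. Python 3.11.15 and scipy 1.17.1 gave permutation tests (100000 resamples, or exact). No label ties same-numbered IOP and contralateral libraries to an animal, so the main fit did not treat them as pairs. A fit with the replicate number as a block is given below.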

Additional observations from a re-analysis of the deposited data

Results flagged for a closer look

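Members stood higher than intergenic constant regions in the untreated libraries and lower in the contralateral ones. The difference in median percentile (members minus intergenic) was 1.22 ± 0.32 points in the 6 untreated libraries and -1.14 ± 0.32 in the 6 contralateral libraries (SD). The gap between the kinds of control was 2.36 points, and it was drawn to attention because all 6 untreated libraries lay above 0 and all 6 contralateral libraries below. The difference was not tested in libraries other than those in which it was noticed. Untreated libraries also listed narrower peaks (median width in members 200 to 255 bp against 352 to 455 bp in contralateral libraries), and the part of this in the gap was not tested.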

How the results depend on the processing

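The lists limit every value: they hold no reads, a fold is relative to local background, and a region that closed in any library is outside the set. The number of members was 6136 to 6487 when 1 library was left out, and 658 when each library's peaks had to cover at least 50% of the region. Under the comprehensive annotation 5062 of the 6133 remained.

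The 36 age calls became 6 with percentiles in place of folds, 70 with the class of shortest listed peak as a covariate, 2 within contralateral and 11 within untreated controls, and 17 to 151 without 1 library. The 13 calls for IOP at 18mo became 0 with percentiles and 2 to 17 without 1 library. With percentiles the median over all regions for that contrast was -0.21 normal scores, against 0.02 with folds. The 1 call at 3mo became 0 with percentiles or with only peaks of −log10 q of at least 2, and 0 to 1 without 1 library. The IOP difference between ages gave 0 members in every setting. The 2361 calls between untreated and contralateral libraries became 540 with percentiles and 2004 to 2304 without 1 library.

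With the replicate block the calls were 10 for age, 0 for IOP at 3mo and 0 for IOP at 18mo. Same-numbered IOP and contralateral libraries correlated at -0.312, -0.239 and 0.199 at 3mo and at 0.356, 0.212 and -0.155 at 18mo (deviations from group means). The signs were mixed, so these values cannot settle whether libraries of the same number came from the same animal.

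Members minus intergenic regions in rank turned to 1.219 within untreated libraries and stood at -0.9538 within the others, and ran from -0.3297 to -0.1451 without 1 library. These sets were split after their signs were seen, so a test within either would only restate the signs, and no p-value is given. For the summit displacement the values were -0.8333 bp within untreated libraries and -0.3333 bp within the others, and -0.5882 to -0.4118 bp without 1 library. Too few differences were other than 0 for a sign-flip test within either set to pass 0.05. The age difference in median rank was 1.561 with labels permuted within kind of control, now past the threshold, and 1.131 to 1.973 without 1 library. The IOP differences ran from -0.4276 to -0.0862 at 3mo and -0.7767 to -0.4273 at 18mo. Ranking by fold in place of q gave larger differences, 3.027 for age (not past 0.05), -1.044 for IOP at 3mo and -3.324 for IOP at 18mo. For IOP, an exact permutation of 3 against 3 libraries cannot go below p = 0.1, so it could not pass. A mean over regions gave a summit displacement of -1.429 bp. For the 19 named members called in a contrast, 206 alternative values kept the call and 50 lost it. The 11 not called stayed so in all 146, and no direction reversed. Settings within a kind of control or of library, and the permutation within kind, were chosen after seeing the data.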
